A study of Xenopus tropicalis with 9 samples.

Results

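Gene levels in the lung of an adult female western clawed frog, Xenopus tropicalis, were set against those in the heart of an adult female of the same species. Each tissue was measured in 1 library, and these are 2 of the 9 libraries of the series. The other libraries came from male heart, ovary, testes, female and male head, intestine and GI tract of adult frogs, and they serve here as context. The 2 libraries were taken by their tissue and sex labels. No genotype or treatment is named, and nothing says which tissues came from the same animal. With 1 library per tissue there is no replicate check, so the values below describe these libraries, and no test or p-value is given.

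Frog lungs are sac-like and divided by septa, and their gas-exchange surface is lined by epithelial cells that secrete surfactant, a film of lipid and protein that lowers surface tension. Beneath the epithelium lie dense capillaries, smooth muscle and matrix. Heart muscle is built from sarcomeres, repeating units of thick myosin and thin actin filaments, and is supplied with ATP mainly by mitochondria.

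Levels are given in TPM, transcripts per 1000000 after correction for transcript length. A difference is the log2 difference of TPM + 1, lung minus heart, so a positive value means higher in lung. Genes with at least 10 TPM in either library were compared, which left 9965 of 30330. A gene was counted as higher in one tissue when the difference was at least 4-fold. In bulk tissue, fewer cells of a type and less RNA per cell cannot be told apart.

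The tissue labels were checked first. sftpc, which encodes surfactant protein C, had 15017 TPM in lung and 0.11 TPM in female heart. In the other libraries it had 45.4 TPM in male heart, 0.10 in ovary, 3.25 in female head, 1.19 in male head, 0 in intestine, 21.5 in testes and 67.3 in GI tract. sftpb, for surfactant protein B, had 6437 TPM in lung and 21.7 TPM in female heart, and between 0.07 and 26.7 TPM in the other 7 libraries. Lung was far above every other library for both genes. myl7, the atrial myosin light chain, had 180 TPM in lung, 19795 TPM in female heart and 28174 TPM in male heart, and no more than 4.17 TPM in the other 6 libraries. Both hearts stood above all other libraries, and the lung library came next.

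Of the 9965 genes, 1027 were higher in lung, which is 10.3% of those compared, and 192 were higher in female heart, which is 1.93%. Together these are 12.2%. The differences were unequal in abundance as well as in number. The lung-higher genes held 18.1% of all TPM in lung and 2.20% in heart, whereas the heart-higher genes held 1.60% in lung and 26.1% in heart. A few very abundant muscle and mitochondrial genes were prominent on the heart side. Of the compared genes, 2114 reached 10 TPM in lung alone and 217 in heart alone, and such a gene could only be higher where it reached it. Among the 7634 that reached 10 TPM in both, 178 were higher in lung and 66 in heart. List counts below share this limit: lung alone carried 29 of the 38 vessel genes compared, 22 of 45 matrix genes and 16 of 28 lung signal genes past the minimum, and heart alone 18 of 43 sarcomere genes. The median difference of all compared genes was +0.51 on the TPM scale, and it became -0.16 with TMM scaling and -0.27 with DESeq2 size factors. Of all calls, 84.2% were higher in lung by TPM, 73.3% with TMM scaling and 69.9% with DESeq2 size factors. Some list medians below are therefore also given relative to the median of all genes. The others are on the TPM scale only and include its shift of +0.51.

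**Figure D1:**
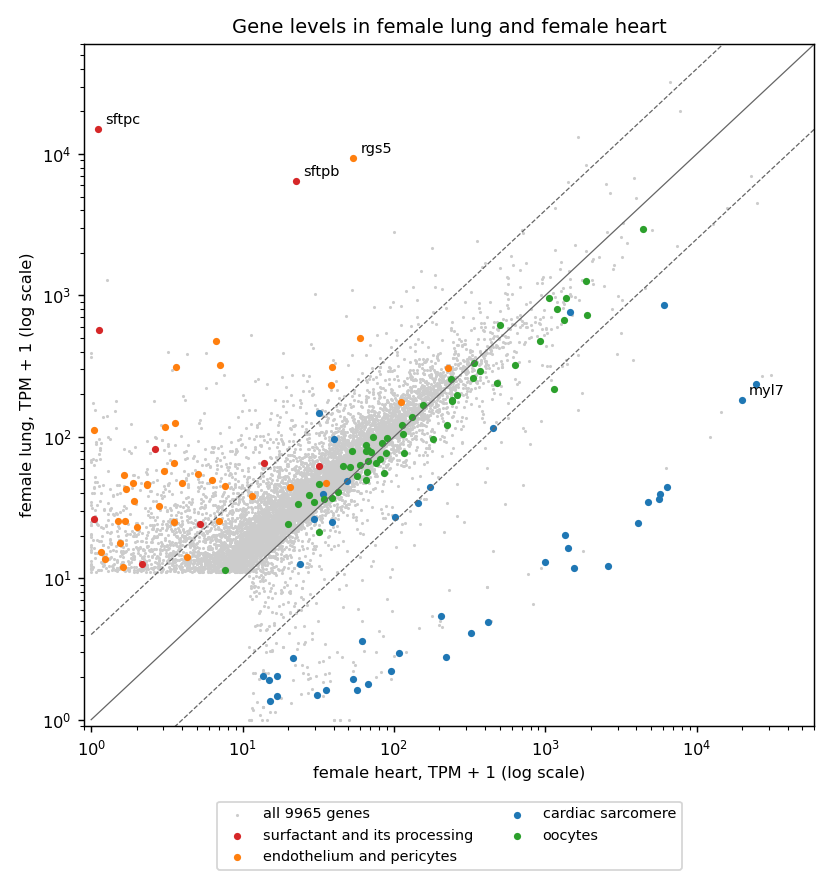
Each point is a gene with at least 10 TPM in either library, with TPM + 1 in female lung on the vertical axis and TPM + 1 in female heart on the horizontal axis, both log scales. The solid line marks equal levels and the dashed lines 4-fold. Most members of the surfactant and endothelium lists lie above the upper dashed line, most sarcomere members below the lower one, and oocyte members near the solid line.

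Surfactant genes included the largest difference of any gene with a symbol, that of sftpc at 13.72. Of 16 genes of the surfactant and processing list found in the tables, 9 reached 10 TPM and 8 were higher in lung, with none higher in heart. The median difference of the 9 was 4.67, which is 4.15 above the median of all genes. Of the 9, 6 reached 10 TPM in lung alone, and 2 of the 3 that reached it in both were higher in lung. Surfactant protein transcripts together had 21465 TPM in lung. With 3 counts in heart, the sftpc ratio on the scale of counts per 1000000 (CPM) was 115400, with a 95% counting interval of 39470 to 559400. The sftpb ratio on that scale was 285.6, with an interval of 266.3 to 306.8. These intervals cover counting error only.

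slc34a2, the sodium-phosphate cotransporter that alveolar type II cells use to take up phosphate in mammals, had 571 TPM in lung, 0.12 in female heart and 3.83 in male heart. lamp3, a membrane protein of lamellar bodies in mammals, had 80.4 TPM in lung and 1.64 TPM in heart. It was higher still in intestine, at 917 TPM, and GI tract, at 696 TPM. nkx2-1, the transcription factor that specifies lung epithelium, had 25.4 TPM in lung and 0.04 TPM in each heart. napsa and ctsh, proteases that process surfactant protein B in mammals, were higher in lung by 2.54 and 2.24 on the log2 scale. cebpa, a transcription factor, was higher by 2.20. napsa, ctsh and cebpa had higher levels in male head, at 21.7, 101 and 94.8 TPM, than in lung, at 11.7, 64.6 and 23.2 TPM. abca3, the lipid transporter of lamellar bodies, stayed under 10 TPM, with 8.83 TPM in lung and 1.80 TPM in heart. The lipid transporter mfsd2a had 61.5 TPM in lung and 30.8 TPM in heart, inside the 4-fold limit.

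The surfactant collectin genes differed from those of the hydrophobic surfactant proteins. sftpa had 11.5 TPM in lung, was at 0 counts in female heart, and had 10.5 TPM in male head. Set against a floor of 3 counts, it was at least 69.8-fold higher in lung on the CPM scale. sftpa1 and sftpd had 0 counts in both lung and female heart. The lung library thus held abundant sftpc and sftpb transcripts, little sftpa transcript and no counts of sftpa1 or sftpd. Other collectin genes were not looked at.

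The sodium, water and proton handling genes of the epithelium gave the next clear group. Of 30 genes found, 17 were compared, 9 were higher in lung and none in heart, with a median of 2.94. All 3 subunits of the epithelial sodium channel, which draws sodium and with it water out of the air space, were among the 9. Of the 17, 9 reached 10 TPM in lung alone, these 3 subunits among them, and could only be higher there. Of the 8 that reached it in both, 1 was higher in lung. scnn1a had 155 TPM in lung, 0.06 in female heart and 0.41 in male heart. scnn1b had 115 TPM in lung, 0.04 in female heart and 0.37 in male heart. scnn1g had 24.2 TPM in lung, 0.04 in female heart and 0.14 in male heart. In each case both hearts were near 0.

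The water channel gene aqp1 had 526 TPM in lung and 10.4 TPM in female heart, and aqp3 had 40.3 TPM in lung and 4.09 TPM in heart. Carbonic anhydrases, which interconvert carbon dioxide and bicarbonate, followed the same direction for 2 members. ca4 had 51.2 TPM in lung, 1.04 in female heart and 26.2 in male heart, and ca2 had 23.2 TPM in lung, 2.14 in female heart and 18.9 in male heart. For these 2 genes male heart lay close to lung, within 4-fold.

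Airway and lung epithelial genes divided into separate groups. Of 25 compared, 9 were higher in lung, 1 was higher in heart and 15 lay within 4-fold, with a median of 1.49, which is 0.98 above that of all genes. With either count-based scaling 6 were higher in lung. cldn18, a tight-junction protein of lung and stomach epithelium, had 364 TPM in lung, 0 counts in female heart and 0.69 TPM in male heart, so that it was at least 2153-fold higher in lung than the floor of 3 counts. foxa2 and foxa1, transcription factors of endoderm, had 43.02 and 26.6 TPM in lung and 0.05 and 0.06 TPM in female heart. pigr, the receptor that carries immunoglobulin across epithelia, had 38.9 TPM in lung and 0.04 TPM in heart. The member higher in heart was hopx, a homeodomain-only protein that marks type I alveolar cells in mouse and is also a cardiac gene. It had 4.02 TPM in lung, 200 in female heart and 809 in male heart.

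The 15 members within 4-fold included general epithelial genes at similar levels. The claudin gene cldn7 had 411 TPM in lung and 405 TPM in female heart, against 7.41 in ovary and 2.33 in male heart. The adhesion gene epcam had 317 TPM in lung, 285 in female heart, 397 in ovary and 1.80 in male heart. The tight-junction gene ocln had 262 TPM in lung, 175 in female heart, 54.9 in ovary and 1.67 in male heart. The splicing factor gene esrp1 had 46.3 TPM in lung, 48.0 in female heart, 1.48 in ovary and 0.13 in male heart. Of these 15 members, 11 were at least 8-fold lower in male heart than in female heart. With male heart as the reference, 19 members were higher in lung in place of 9, so the ratio to female heart left out epithelial genes that female heart also carried.

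Genes of vessel walls were the largest lung-higher group among the lists. Of 54 found, 38 were compared, 31 were higher in lung and none in heart, with a median of 3.53, or 3.02 above all genes. Lung had the highest level of all 9 libraries for 35 of these 38, beside 36.6% of all compared genes. Of the 38, 29 reached 10 TPM in lung alone, which favours lung in this ranking. rgs5, a regulator of G-protein signalling typical of pericytes in mammals, had 9357 TPM in lung, 52.8 in female heart and 43.7 in male heart, and at most 230 TPM in any other library. cldn5, the endothelial claudin, had 473 TPM in lung, 5.66 in female heart and 48.6 in male heart. apln, a peptide that acts on endothelial cells, had 312 TPM in lung, 2.62 in female heart and 10.6 in male heart, and its receptor gene aplnr had 48.3 TPM in lung, 5.27 in female heart and 19.9 in male heart.

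The junction and identity genes of endothelium showed the same order of libraries. cdh5, VE-cadherin, had 56.2 TPM in lung, 2.05 in female heart and 16.5 in male heart. pecam1 had 64.4 TPM in lung, 2.50 in female heart and 17.2 in male heart. The Notch ligand gene dll4 had 125 TPM in lung, 2.56 in female heart and 11.5 in male heart. Lung was highest, male heart intermediate and female heart lowest for all 3. Of the 38 compared, 30 were at least 2-fold higher in male heart than in female heart. With male heart as the reference, 20 members were higher in lung, in place of 31.

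Smooth muscle genes were mostly higher in lung. Of 20 compared, 12 were higher in lung and none in heart, with a median of 2.69. acta2, smooth muscle actin, had 13119 TPM in lung, 1637 in female heart and 1822 in male heart. The contractile genes myh11, with 245 TPM in lung and 25.8 TPM in heart, and cnn1, with 427 TPM in lung and 28.4 TPM in heart, followed it. des.1, for desmin, which heart muscle also uses, ran the other way at 114 TPM in lung and 449 TPM in heart, just inside 4-fold.

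Matrix and fibroblast genes gave 27 of 45 higher in lung and 1 higher in heart, with a median of 2.57. Fibronectin, fn1, had 255 TPM in lung and 11.6 TPM in heart. The elastic fibre genes fbn1 and fbln5 had 38.0 and 47.1 TPM in lung and 1.89 and 4.43 TPM in heart. The most abundant members differed less. sparc had 1689 TPM in lung and 739 TPM in heart, and the main fibrillar collagen gene col1a1 had 487 TPM in lung and 208 TPM in heart, both within 4-fold. postn, for periostin, was the member higher in heart, with 1.15 TPM in lung, 13.6 in female heart and 78.0 in male heart. With male heart as the reference only 9 members were higher in lung.

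Blood-cell genes were also higher in lung. Of 22 red cell and platelet genes compared, 13 were higher in lung and none in heart, with a median of 2.30. The globin gene hbg1 had 32225 TPM in lung, 6716 in female heart and 8216 in male heart, and was the most abundant gene past 4-fold in lung. alas2, the first enzyme of haem synthesis in red cells, had 442 TPM in lung, 68.7 in female heart and 269 in male heart. Globin genes lie in families of similar copies, so their single levels are uncertain where the counting could split reads. Of 62 leukocyte genes found, 49 stayed under 10 TPM in both libraries, 45 of them higher and 3 lower in lung. Some of the 45 differed by more than 4-fold but were not counted, such as kit, with 8.75 TPM in lung and 0.35 TPM in heart. The 13 that were compared were all past 4-fold toward lung, but 10 of these reached the minimum in lung alone. The 3 that reached it in both included b2m, a subunit of class I histocompatibility molecules that is not confined to leukocytes, at 6348 TPM in lung and 1419 TPM in heart.

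These blood-cell counts depended on the scaling and on the heart. With TMM scaling 7 red cell and 7 leukocyte genes were past 4-fold, and with DESeq2 size factors 6 of each. With male heart as the reference 1 red cell gene and 4 leukocyte genes were higher in lung.

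Some signals of lung development were expressed in adult lung. Of 59 genes found from that list, 31 stayed under 10 TPM in both libraries. Of the 28 compared, 14 were higher in lung and none in heart, with a median of 2.06. Of the 12 that reached 10 TPM in both, 2 were higher in lung. foxf1, a transcription factor of lung mesenchyme and endothelium, had 112 TPM in lung, 0.05 in female heart and 0.54 in male heart. The ligand gene shh had 68.1 TPM in lung, 0 in female heart and 0.34 in male heart, and hhip, whose product binds hedgehog ligands, had 46.1 TPM in lung and 1.13 TPM in heart. The ligand genes fgf10, at 30.3 TPM in lung and 0.36 TPM in heart, and wnt7b, at 19.2 TPM in lung and 0 in heart, were also higher in lung. bmp2 had 209 TPM in lung and 141 TPM in female heart against 13.9 TPM in male heart, and was level between the 2 female tissues.

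**Figure D2:**
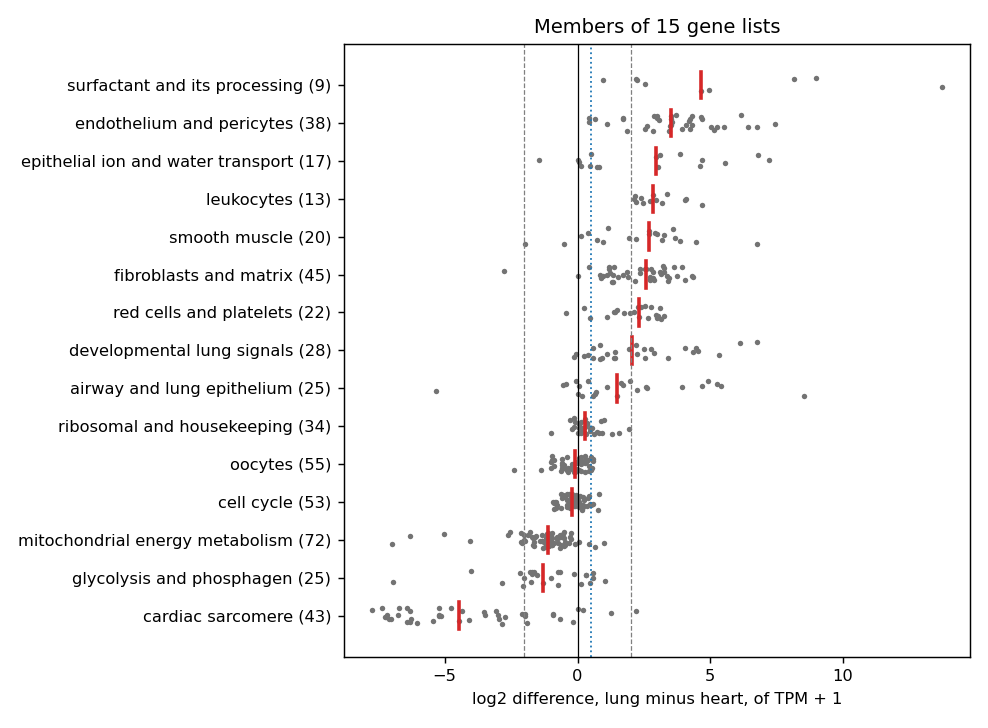
Log2 difference of TPM + 1, lung minus heart, for compared members of 15 gene lists, with the number of members in brackets. Grey points are genes, red bars medians, the dotted line the median of all genes (+0.51) and dashed lines 4-fold. Surfactant and vessel lists lie to the right, oocyte and cell cycle lists near 0 and the sarcomere list to the left.

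Among the 20 genes most shifted to lung were several outside these groups. slc39a2, a zinc transporter, had 393 TPM in lung, 0 counts in female heart and 0.42 TPM in male heart, at least 3244-fold higher in lung than the floor of 3 counts. gprc5a, an orphan receptor abundant in mammalian lung epithelium, had 173 TPM in lung and 0.03 TPM in heart. evpl, for envoplakin of cell junctions, had 88.8 TPM in lung and 0.16 TPM in heart. esm1, a proteoglycan secreted by endothelium, had 115 TPM in lung and 0.45 TPM in heart. cyp2a6, a cytochrome P450, had 298 TPM in lung, 2.41 in female heart and 31.0 in male heart. The caveola genes cav1 and cav2 were abundant as well, with 1481 and 1088 TPM in lung and 150 and 51.7 TPM in heart.

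Over all 9 libraries, 523 of the 1027 lung-higher genes had their highest level in lung, which is 50.9%, beside 36.6% of all compared genes. The choice of these genes already required lung to exceed female heart. At 4-fold above every other library stood 76 genes, 55 of them with a symbol. They included sftpc, sftpb, rgs5, slc34a2, cav2, mcam, apln, nkx2-1 and tbx2. By the Pearson correlation of log2(TPM + 1) over the 9 libraries, the genes with a symbol most like sftpc were exoc3l1 (r = 0.94), fam162b (0.90), kdrl (0.90), npr3 (0.88) and pcdh12 (0.87). These values rest mostly on the single lung library.

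**Figure D3:**
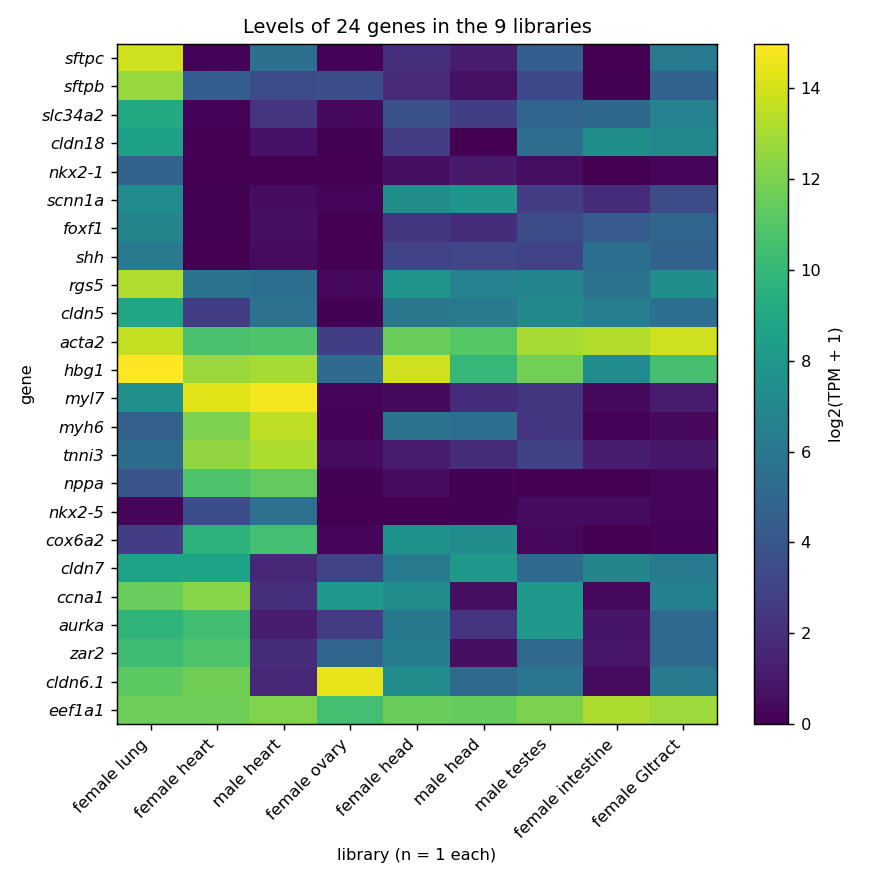
Log2(TPM + 1) of 24 named genes in the 9 libraries, with lung and female heart at the left. Lung genes are brighter in lung than in both hearts, although acta2 and hbg1 are also high in both hearts. Muscle genes are bright in both hearts. cldn7, ccna1, aurka and zar2 are bright in lung and female heart and dark in male heart.

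On the heart side, sarcomere genes led the differences. Of 43 compared from that list, 1 was higher in lung and 32 were higher in heart, with a median of -4.47, or -4.99 relative to all genes. tnnt2, cardiac troponin T, had 11.3 TPM in lung, 2586 in female heart and 5802 in male heart, a log2 difference of -7.72, the largest toward heart. tnni3 and tnnc1, troponins I and C, had 38.1 and 43 TPM in lung and 5750 and 6396 TPM in female heart. Their differences of -7.20 and -7.18 were close to that of tnnt2.

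The motor and light chain genes behaved alike. The heavy chain genes myh6 and myh15 had 23.6 and 10.8 TPM in lung, 4084 and 1539 TPM in female heart, and 11851 and 3863 TPM in male heart. The light chain gene myl3 had 234 TPM in lung and 24802 TPM in heart. actc1, cardiac actin, had 33.4 TPM in lung and 4777 TPM in heart. Both hearts were above lung for each of these genes. acta1, called skeletal actin in mammals, was the most abundant heart-higher gene, with 275 TPM in lung, 30855 in female heart and 37597 in male heart. tpm2, a tropomyosin also made by smooth muscle, was the member higher in lung, with 146 TPM in lung, 30.8 in female heart and 222 in male heart, and no member was with count-based scaling.

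The lung library held many abundant sarcomere transcripts at a small share of their heart level. Of 19 sarcomere genes past 4-fold and at 100 TPM or more in female heart, 17 had a lung level between 0.435% and 2.20% of that in female heart. The median over all 19 was 0.925%. The exceptions among the 19 were tpm1, at 14.1%, and fhl2, at 23.1%, which other cell types also express. The choice of genes past 4-fold itself capped the lung share. It left out the 10 compared list members within 4-fold, so these shares do not describe the whole list. The median level of the 19 was 19.3 TPM in lung, 1539 in female heart and 3863 in male heart. It was 57.3 in female head and 71.3 in male head, above lung, and 0.33 in intestine and 0.11 in ovary. myl7, tnni3, nppa and myh15 stood higher in lung than in any library other than the hearts. Others, such as tcap and actc1, stood higher in both heads than in lung. The source of these transcripts in the lung library was not tested.

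**Figure D4:**
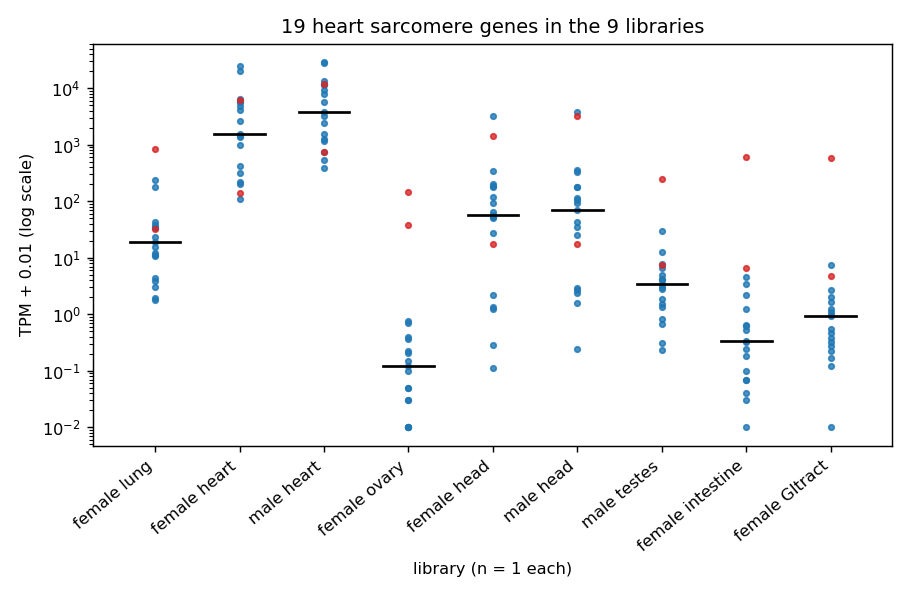
TPM + 0.01 (log scale) of 19 sarcomere genes in each of the 9 libraries, with black bars at the median. The genes were chosen as past 4-fold toward heart and at 100 TPM or more in female heart. Red points are tpm1 and fhl2 and blue points the other 17. The lung median of 19.3 TPM lies below those of the hearts and heads and above those of ovary and intestine.

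Of 32 genes on the skeletal muscle list, 30 stayed under 10 TPM in both libraries, at most 5.04 TPM in lung and 6.68 TPM in heart, among them myod1 and chrnd. The other 2, acta1 and actn3, were higher in heart and are expressed in frog heart in both sexes here.

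Some cardiac hormone and regulator genes were far higher in heart, but the compared members of their lists did not as a group follow the sarcomere genes. nppa and nppb, the natriuretic peptides, had 14.7 and 9.71 TPM in lung, 1773 and 765 TPM in female heart, and 2649 and 2262 TPM in male heart. Of the 9 hormone and processing genes compared, 5 were higher in lung, or 3 with count-based scaling, and these 2 were higher in heart. Of the 9, 4 reached 10 TPM in lung alone and could only be higher there. Of the 4 that reached it in both, 1 was higher in lung and 1 in heart. The median of the 9 was 2.20, or 1.69 relative to all genes. Receptors and vessel-derived peptides were among the 5, with the clearance receptor gene npr3 at 42.5 TPM in lung and 0.85 TPM in heart, and the adrenomedullin gene adm at 21.7 TPM in lung and 1.92 TPM in heart.

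Of 18 cardiac transcription factors compared, 5 were higher in lung, or 2 with count-based scaling, and 3 in heart. Of the 18, 8 reached 10 TPM in lung alone and 3 in heart alone, and all of these calls came from them. Their direction therefore follows from the minimum. Of the 7 that reached it in both, none was past 4-fold. The median of the 18 was 0.95, or 0.43 relative to all genes. Those higher in heart were nkx2-5, with 0.18 TPM in lung, 10.8 in female heart and 47.8 in male heart, gata4, with 3.10 TPM in lung and 27.7 TPM in heart, and hand2, with 3.58 TPM in lung and 24.4 TPM in heart. The 5 higher in lung, tbx2, tbx3, irx1, irx3 and irx5, are T-box and Iroquois genes that the mouse lung also expresses. tbx2 had 57.8 TPM in lung and 1.33 TPM in heart. gata6, used by both organs, had 18.8 TPM in lung and 18.1 TPM in heart. A further 16 list members stayed under 10 TPM in both libraries, and of these 9 were lower and 5 higher in lung. Among the 9 were tbx5, with 0.88 TPM in lung and 7.97 TPM in female heart, and irx4, with 0.35 and 9.84 TPM.

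Calcium handling and conduction genes mostly stayed within 4-fold. Of 15 compared, 2 were higher in lung and 3 in heart, and against male heart 12 were higher in heart. slc8a1, the sodium-calcium exchanger, had 24.1 TPM in lung and 292 TPM in heart, and the sodium channel subunit gene scn4b had 3.25 TPM in lung and 78.5 TPM in heart. pln, the regulator of the calcium pump, had 51.4 TPM in lung and 194 TPM in heart, just within 4-fold. The gap-junction genes gja1 and gja4 were those higher in lung, with 30.2 and 45.7 TPM in lung and 1.45 and 1.35 TPM in heart.

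Mitochondrial energy genes were lower in lung as a group by a smaller amount. Of 72 nuclear genes compared, none was higher in lung, 12 were higher in heart and 60 lay within 4-fold, with a median of -1.11, or -1.62 relative to all genes. In all, 70 of the 72 lay below the median of all genes. The count past 4-fold became 27 with TMM scaling, 29 with DESeq2 size factors and 35 with male heart as the reference. atp5f1b, a subunit of ATP synthase, had 542 TPM in lung and 3182 TPM in heart. Citrate synthase, cs, had 127 TPM in lung and 469 TPM in heart. All 13 genes encoded by mitochondrial DNA were lower in lung, with differences from -3.44 to -1.70 and a median of -2.74. They took 1.05% of counts in lung, with a 95% Wilson interval of 1.046 to 1.053. Their share in female heart was 5.83%, with an interval of 5.82 to 5.84, and in male heart it was 11.01%.

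Muscle-type isoforms of mitochondrial proteins separated the tissues more than their ubiquitous partners. The cytochrome c oxidase subunit genes cox6a2 and cox7a1 had 5.59 and 3.46 TPM in lung and 828 and 146 TPM in heart. Their partners cox6a1 and cox7a2 had 200 and 109 TPM in lung and 298 and 68.2 TPM in heart. The ADP/ATP carrier gene slc25a4 had 10.8 TPM in lung and 932 TPM in heart, and its paralogue slc25a5 had 994 TPM in lung and 3032 TPM in heart. Over the list of isoform pairs, 56 genes were compared, of which 10 were higher in lung, or 5 with count-based scaling, and 16 in heart. Those higher in lung included the cytoplasmic actin gene actg1, with 8354 TPM in lung and 1869 TPM in heart. They also included vim, actn1 and flna, of which flna is on the smooth muscle list too.

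In energy supply outside mitochondria, none of 25 glycolysis and phosphagen genes was higher in lung and 6 were higher in heart, with a median of -1.32. The count became 13 with either count-based scaling and 12 with male heart as the reference. ckm, muscle creatine kinase, had 98.6 TPM in lung, 12327 in female heart and 17049 in male heart. ldhb, the heart-type lactate dehydrogenase, had 1120 TPM in lung and 4556 TPM in heart, just past 4-fold. Most other enzymes of the pathway differed by less, such as gapdh with 2238 TPM in lung and 7359 TPM in heart.

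The heart-higher genes could be looked at in libraries that did not choose them. Of the 192 genes, 172 had at least 10 TPM in male heart or intestine, and 162 of these, 94.2%, were at least 4-fold higher in male heart than in intestine, with none in the opposite direction. The same share among all compared genes was 12.8%. All 32 heart-higher sarcomere genes, 11 of 12 mitochondrial and 6 of 6 glycolysis and phosphagen genes were among them. A gene that reached 10 TPM in male heart alone could only be higher there. The median level of the 192 was 227 TPM in male heart and 1.74 TPM in intestine. Heart-higher genes under 10 TPM in both of these libraries are not in the share. No second lung library was available for the lung-higher genes. Over the 9 libraries, the genes most like myl7 were tnni3 (r = 0.99), nppa (0.99), myh15 (0.99), tnnt2 (0.98) and pkig (0.97), which again rests on the 2 hearts.

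Both libraries also carried transcripts typical of oocytes, at similar levels. Of 60 oocyte genes found, 55 were compared, none was higher in lung and 1 was higher in heart. The median was -0.10, or -0.61 relative to all genes, and 53 of the 55 lay within 2-fold. With TMM scaling 33 did and with DESeq2 size factors 30 did. The median member had 89.6 TPM in lung and 87.6 in female heart, beside 29.1 in ovary and 0.24 in male heart. The exception, rbpms2, had 216 TPM in lung, 1135 in female heart, 197 in ovary and also 4009 TPM in male heart. zar2, a maternal RNA-binding factor, had 1258 TPM in lung, 1846 in female heart, 29.1 in ovary and 2.69 in male heart. It had 0.91 TPM in female intestine, 34.25 in female GI tract and 79.95 in female head.

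Cell cycle genes were shared in the same way. All 53 compared lay within 2-fold by TPM, with a median of -0.22. With TMM scaling 31 did, with a median of -0.92, and with DESeq2 size factors 25 did, with a median of -1.04. ccna1, the embryonic cyclin A of Xenopus, had 2903 TPM in lung, 5094 in female heart, 275 in ovary and 3.01 in male heart. The mitotic kinase gene aurka had 892 TPM in lung, 1311 in female heart, 5.07 in ovary and 1.21 in male heart. ccnb1 had 1534 TPM in lung, 2810 in female heart, 2894 in ovary and 3.19 in male heart. Lung and female heart were far above male heart, whereas the ovary library was not uniformly high. Other female libraries were also well below lung and female heart. ccna1 had 0.26 TPM in female intestine, 93.8 in female GI tract and 163 in female head. aurka had 0.83, 33.8 and 66.7 TPM in these.

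A wider set was drawn from 3 libraries other than lung and female heart. It held genes that reached 10 TPM in ovary and exceeded there both male heart and intestine by 8-fold or more. Of these, 1283 were among the compared genes. Their median difference was 0.32 with an interquartile range of 0.08 to 0.55, and 93.3% lay within 2-fold, beside 68.8% of the other genes, whose median was 0.56. With TMM scaling the medians were -0.36 for the ovary-type genes and -0.12 for the others. The ovary-type genes held 14.98% of TPM in lung, 15.7% in female heart, 66.1% in ovary and 1.56% in male heart. Their share was 3.82% in female head, 1.89% in female GI tract and 1.4% in female intestine. Male heart and intestine were low by the choice of the set. Of the 1283, 10 were past 4-fold toward lung and 5 toward heart, beside 10.3% and 1.93% of all compared genes.

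A further set was drawn with the use of lung and female heart themselves. In all, 1376 genes had at least 10 TPM in lung and in female heart and were at least 8-fold lower in male heart than in female heart. They held 17.3% of TPM in lung, 20.4% in female heart, 31.7% in ovary and 0.583% in male heart. Of them, 96.5% lay within 2-fold, beside 71.9% of all compared genes. Past 4-fold were 2 toward lung and 1 toward heart, beside 10.3% and 1.93% of all compared genes. The choice required 10 TPM in both libraries and so left out genes high in only 1 of them. This closeness therefore follows in part from the choice. In ovary 849 had at least 10 TPM and 153 had under 1 TPM. Sex and the presence of these transcripts cannot be told apart in these heart libraries.

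**Figure D5:**
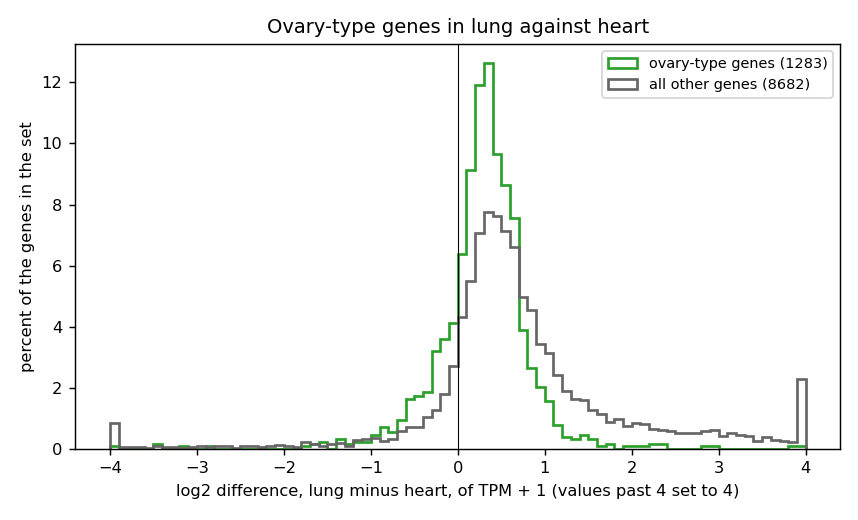
Share of genes, in percent of each set, by log2 difference of TPM + 1, lung minus heart, for ovary-type genes (green) and all other compared genes (grey). Values past 4 are drawn at 4. The ovary-type genes are concentrated near their median of 0.32, with 93.3% within 2-fold.

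Of 25 genes for ovarian soma and steroid synthesis, 21 stayed under 10 TPM in lung and female heart. Most were also low in the ovary library, with foxl2 at 0.11 TPM and amh at 0, so the list does not bear on ovarian support cells. Of the other 4, 1 was higher in lung and 2 in heart. The 2 higher in heart were gata4 and inha, and inha had 2.28 TPM in lung, 17.4 in female heart and 164 in male heart.

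Genes of general function were close to level. Of 34 ribosomal and housekeeping genes, none was past 4-fold in either direction, with a median of 0.28 by TPM that became -0.42 with TMM scaling. eef1a1, a translation elongation factor, had 3243 TPM in lung and 3240 TPM in heart. Among the most abundant genes within 1.5-fold, ybx1, ubc, eef2.1, rack1, cirbp and actb were also abundant in male heart. The others, cldn6.1, gmnn and zar2, were at most 2.69 TPM in male heart. cldn6.1, a claudin, had 2363 TPM in lung, 3449 in female heart and 23187 in ovary.

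Markers of other organs were low in both libraries. All 31 liver and gut genes stayed under 10 TPM, at most 5.96 TPM in lung and 3.06 TPM in heart. Of 12 thyroid genes, nkx2-1 and duox2 reached 10 TPM, in lung alone. Both were past 4-fold toward lung by TPM, but duox2 had a CPM ratio of only 2.80, and 1 of the pair stayed past 4-fold with count-based scaling. By contrast, the thyroid-defining tg and tpo had 0.09 and 0.32 TPM in lung and 0.01 and 0.41 TPM in heart. Of 43 motile cilia genes, 32 stayed under 10 TPM, including foxj1, the regulator of motile cilia, at 0 in both. Of the 11 compared, 1 was higher in lung and 1 in heart. Mesothelial and epicardial genes gave 3 of 11 higher in lung, or 1 with count-based scaling, and 1 in heart, gata4.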

How the data were processed

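The authors deposited a table of counts per gene and a table of TPM, each with 1 column for each of the 9 libraries. The deposited counts are read as estimated counts that the authors made and rounded, since 1272 table cells pair a TPM above 0 with 0 counts. The deposited TPM values sum to 1000000 per library. RSEM 1.3 and deepTools are named per the submitters' processing notes. Per the labels' protocols, RNA was isolated with Qiagen kits and Kapa mRNA reagents made the libraries. Which aligner, build and annotation were used is not given in the sources used here.

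Depth ranged from 27628254 to 35044545 counts (lung 30105334, female heart 33530721), so 3 counts correspond to 0.0999 CPM in lung and 0.0911 CPM in female heart. The row without a gene name held 0.223% of counts in lung and 1.78% in female heart and was left out. The RefSeq table of UCB_Xtro_10.0 served for names only and matched 14553 of 15165 symbols.

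From TPM, log2 differences were computed with a pseudocount of 1, a minimum of 10 TPM in either library and a limit of 4-fold. Counting intervals are exact conditional 95% intervals on CPM. edgeR 4.0.16 and DESeq2 1.42.0 gave scaling factors only. Python 3.11.15, pandas 2.3.3 and scipy 1.17.1 did the rest. The calculation was tested on simulated counts. The 27 gene lists, of which 1026 of 1138 symbols were found, and the libraries compared were chosen with earlier results of these data known. Named genes are the markers, the 20 most different and 15 most abundant per direction, the 10 most abundant within 1.5-fold, the leading list members, and the 5 nearest patterns to sftpc and myl7.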

Additional observations from a re-analysis of the deposited data

How the results depend on the processing

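With a 2-fold limit 2445 genes were higher in lung and 354 in heart, and with an 8-fold limit 476 and 119. Lung-higher genes numbered 628 with TMM scaling and 561 with DESeq2 size factors. Male heart as the reference gave 3906 lung-higher and 549 heart-higher genes. The oocyte list's median difference was -0.77 with TMM scaling, -0.88 with DESeq2 size factors, 0.37 after leaving out ovary-type genes and 6.07 against male heart. With the 2-fold limit, 84.2% of heart-higher genes were at least 4-fold higher in male heart than in intestine. Other minimums, a pseudocount of 0.1 TPM, and rescaling without ovary-type genes or without mitochondrial and red cell genes left both counts within 1.5-fold. Among 78 named genes, none that was past 4-fold changed direction in these alternatives where it could be computed. No library could be left out, since each tissue has 1, and counting intervals do not cover variation between animals.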

Other observations

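Some genes of nerves, endocrine cells and stress responses also differed between the 2 libraries. Of 9 neuronal and endocrine genes compared, 5 were higher in lung and 1 in heart. vip, a peptide of airway nerves in mammals, had 17.3 TPM in lung and 0.17 TPM in heart, and the myelin genes pmp22 and mpz had 84.3 and 10.4 TPM in lung and 15.8 and 1.01 TPM in heart. sst, for somatostatin, ran the other way, with 0.21 TPM in lung, 10.6 in female heart and 24.7 in male heart. Of 31 stress and immediate early genes compared, 25 lay within 4-fold and the median was 0.49, or -0.02 relative to all genes. As a group they thus stood near all compared genes, of which 10.3% were higher in lung and 1.93% in heart. On this list 5 were higher in lung, among them jun, junb and egr1, or 3 with TMM scaling and 1 with DESeq2 size factors. The 1 higher in heart, hspb1, is a small heat shock protein gene abundant in muscle, with 19.3 TPM in lung, 1358 in female heart and 3208 in male heart. fos, which is induced within minutes of stimulation, had 341 TPM in lung and 397 TPM in female heart, beside 4.17 TPM in male heart.

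Hox genes, whose products set position along the body axis, were looked at after their values were seen. Of 37 in the tables, 3 reached 10 TPM, each in lung alone, so that their direction follows from the minimum. hoxa4 had 20.3 TPM in lung and 0.27 TPM in heart, hoxa3 had 11.9 TPM in lung and 0.22 TPM in heart, and hoxb3 had 10.4 TPM in lung and 0.93 TPM in heart. hoxa5, required for lung development in mouse, was just under the minimum, with 8.58 TPM in lung and 0.03 TPM in heart.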
